A study of Mus musculus with 7 samples.

Results

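Ly6 proteins are small cell surface proteins, and 6 mouse genes of this family, Ly6c2, Ly6c1, Ly6a, Ly6d, Ly6e and Ly6k, were described in memory B cells (MBCs) and plasma cells (PCs). They are 6 of the 48795 genes of the deposited table, and all 6 were found there by symbol. They had been put together with the contrast of MBCs against PCs known, so their levels and differences are given as a description, without a test. The 7 libraries are bulk RNAseq of splenic cells from female wild type C57BL/6 mice aged 8 to 12 weeks, sorted 10 d after the mice received sheep red blood cells by vein, an antigen that drives a T cell-dependent germinal center response. MBCs (3 libraries) were gated as B220+ CD138neg IgDneg CD38+ CD273+, and PCs (4 libraries) as B220lo CD138+ IgD-. All samples were enriched for B cells with beads against CD43, a protein that many activated B cells and PCs also carry, and cDNA was made with a Nugen kit. The labels do not say whether the replicates came from separate mice, so any p-value below measures only the spread between these samples.

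Proteins of the Ly6/uPAR family share a compact fold of finger-like loops held by disulfide bonds, and most are tethered to the outer membrane by a glycosylphosphatidylinositol (GPI) anchor. The mouse Ly6 genes lie in a cluster that grew by repeated gene duplication. Several members, Ly6a and Ly6e among them, are known targets of interferon, and antibodies to Ly6C and to Sca-1, the protein of Ly6a, are widely used to divide monocytes, T cells and stem cells. In the GRCm38 build all 6 genes are on chromosome 15 (GENCODE M21). Ly6d is at chr15:74762056-74763620, Ly6k at chr15:74796874-74799986, Ly6e at chr15:74955051-74959905, Ly6a at chr15:74994877-74998031, Ly6c1 at chr15:75044018-75048830 and Ly6c2 at chr15:75108158-75111970. Ly6e alone of these is on the plus strand, and the start sites of the outermost members, Ly6d and Ly6c2, are 348.4 kb apart.

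Ly6c2 and Ly6c1 are near copies that stood at very different levels in PCs, so their coding sequences are shown side by side, with that of Ly6a, the next closest. Over the 393 coding bases of each, Ly6c2 and Ly6c1 were identical at 384 positions (97.7%). The first 90 bases, which hold 6 of the 9 differences, follow, read 5′ to 3′ from the reference transcripts. Capitals in Ly6c2 and Ly6c1 mark bases that differ between these genes, and capitals in Ly6a mark bases that differ from Ly6c2.
Ly6c2: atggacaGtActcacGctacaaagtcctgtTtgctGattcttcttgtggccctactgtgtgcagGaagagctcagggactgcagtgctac
Ly6c1: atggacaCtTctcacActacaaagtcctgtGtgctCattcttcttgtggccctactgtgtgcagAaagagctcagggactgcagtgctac
Ly6a: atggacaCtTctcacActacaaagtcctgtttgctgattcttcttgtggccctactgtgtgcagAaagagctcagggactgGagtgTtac
At the 6 positions that separate Ly6c2 from Ly6c1, Ly6a carries the Ly6c1 base at 4 and the Ly6c2 base at 2. Over whole coding sequences, Ly6a was 81.6% identical to Ly6c2 and 81.8% to Ly6c1, whereas every other pair of the 6 genes was between 46.5% and 53.5% identical. Of the 50-base windows in annotated Ly6c2 transcripts, 14.4% also occurred in transcripts of another gene, most of them in Ly6c1. That share was 32.8% for Ly6c1, 19.0% for Ly6a and 0% for Ly6d, Ly6e and Ly6k. Reads from a shared window can be assigned to either gene by the quantification program, so values of Ly6c2, Ly6c1 and Ly6a carry that uncertainty, while those of Ly6d, Ly6e and Ly6k carry none from such windows.

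Upstream of their start sites the Ly6c copies are less alike. The 250 bases before the first start site of each gene (RefSeq, GRCm38.p6, minus strand, read 5′ to 3′ toward the start) are chr15:75048838-75049087 for Ly6c1 and chr15:75111972-75112221 for Ly6c2. Capitals mark bases that differ or have no partner in the alignment.
Ly6c1: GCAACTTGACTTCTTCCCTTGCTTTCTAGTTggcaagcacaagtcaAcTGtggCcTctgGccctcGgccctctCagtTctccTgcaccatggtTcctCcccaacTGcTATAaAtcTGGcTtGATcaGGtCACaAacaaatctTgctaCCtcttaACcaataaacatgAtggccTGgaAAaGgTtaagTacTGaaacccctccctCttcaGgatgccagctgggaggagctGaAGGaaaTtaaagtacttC
Ly6c2: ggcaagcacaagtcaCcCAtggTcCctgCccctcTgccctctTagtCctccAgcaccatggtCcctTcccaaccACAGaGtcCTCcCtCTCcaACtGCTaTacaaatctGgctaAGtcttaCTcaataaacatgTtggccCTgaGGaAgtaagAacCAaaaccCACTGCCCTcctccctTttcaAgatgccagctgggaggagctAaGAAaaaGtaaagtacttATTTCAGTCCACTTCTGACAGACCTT
Of 228 aligned positions 164 were identical (71.9%), and the longest identical run was 20 bases. Neither window held the motif TTCNNNGAA or the interferon response core GAAANNGAA on either strand, which 7.02% and 7.13% of the 32851 promoter windows of that length hold. Each held 1 copy of the E box CAGCTG, which reads the same on both strands and occurs in 13.0% of promoter windows, starting 35 bases before the Ly6c1 start and 60 bases before the Ly6c2 start. A match to these letters is a description of the window and not of a bound factor.

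Levels are in TPM, the length-adjusted share of a library that a gene's transcripts take. Antibody transcripts can fill much of a PC library, which lowers the TPM of every other gene there, so values were also scaled to the typical gene (scaled TPM, the deposited value divided by a library factor of 1.48 to 2.05 in MBCs and 0.636 to 0.813 in PCs). Across the 11573 genes that passed a filter on low values, the median log2 fold change of PCs over MBCs was 0.14 with scaling and -0.91 without it. The limma test called 742 of these genes higher in PCs (6.41%) and 248 lower (2.14%), at an adjusted p under 0.05 and at least 1 on the log2 scale. This balance followed the scaling, with 472 higher and 3018 lower in TPM as deposited, 393 and 431 with immunoglobulin genes removed, and 629 and 490 with quantile normalization. Without MBC replicate 3 the counts were 1624 and 881. All PC libraries stood above all MBC libraries for 13.0% of the tested genes in scaled TPM, and below them for 8.68%. Of the members, 4 of 6 (Ly6c2, Ly6a, Ly6e and Ly6k) had every PC library above every MBC library in scaled TPM and none had every PC library below. In TPM as deposited the first pattern held for 3 of 6, without Ly6e. Since the members were chosen on this contrast, nothing is read from that count.

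The sorted populations matched their labels by their markers, with an exception among the MBCs. The summed TPM of 6 PC markers was 193 to 381 in MBC libraries and 6702 to 9818 in PC libraries, and that of 6 B cell markers was 3047 to 5328 against 489 to 681. The library labelled MBC replicate 3 stood apart in Cd38 and Pdcd1lg2, genes of sort markers, and in its likeness to PCs. Its Cd38, the gene of an antigen used to gate MBCs, was at 13.9 TPM where the other MBC libraries had 237 and 276. Its Pdcd1lg2, the gene of CD273, was at 5.32 TPM against 78.9 and 36.3. Other sort markers stayed far from the PC values. Ptprc, the gene of B220, was at 1086 TPM in this library, 1767 and 2264 in the other MBC libraries and 176 to 245 in PCs. Sdc1, the gene of CD138, was at 0.12 TPM in this library and 36.6 to 49.6 in PCs. Over the tested genes its log2 values correlated more closely with the 4 PC libraries (r 0.700 to 0.777) than with the other MBC libraries (0.681 and 0.687). MBC replicates 1 and 2 were no closer to each other (0.675), so they do not form a tight pair. Genes above 0 numbered 12983 and 11527 in MBC replicates 1 and 2, 18061 in MBC replicate 3 and 14463 to 16768 in PCs. The part of this difference in the correlations was not tested. Member values are therefore given with and without it.

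Ly6c2 encodes a form of Ly6C, the antigen that marks inflammatory monocytes and is also found on PCs and on memory T cells. It was listed at 0 in all 3 MBC libraries. In PCs it stood at 184, 162, 150 and 181 TPM in replicates 1 to 4. The groups did not overlap, with or without MBC replicate 3, and the 4 PC libraries lay close together at 169 ± 16.3 TPM (SD, n = 4). In scaled TPM the PC values were 290, 241, 184 and 253, with a mean of 242 ± 43.8 (SD, n = 4). Read totals are unknown for these libraries, but low values fall on steps of whole reads, which put the level worth 3 reads of the shortest Ly6c2 coding transcript at no more than 1.54 TPM, or 0.911 scaled TPM, in any MBC library. Against that floor, Ly6c2 was at least 266-fold higher in PCs in scaled TPM, and at least 110-fold higher in TPM as deposited. The PC values correspond to an estimated 458 to 974 reads per library if all came from the shortest coding transcript. The fitted log2 fold change of 7.90 (SE 0.35) depends on the pseudocount of 1 added before the logarithm and rose to 11.22 with 0.1, so it is no bound.

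Because Ly6C is abundant on monocytes and T cells, genes of those cells were examined beside it. Of 11 monocyte, macrophage and neutrophil genes, Cx3cr1, S100a9 and Mpo were at 0 in all libraries, and the summed TPM of the list was 2.14 to 6.81 in PCs, where Ly6c2 alone was at 149.6 TPM or more, and 4.79 to 45.9 in MBCs, where Ly6c2 was at 0. The 10 T and NK cell genes summed to 10.9 to 33.6 TPM in PCs and 0.77 to 49.97 in MBCs. Lck, a kinase of T cells that some B cells also express, made up most of this sum in MBC replicates 1 and 3. It was at 26.1 TPM in MBC replicate 1, 0 in replicate 2 and 47.1 in replicate 3. Cd3e, the gene of a T cell receptor subunit, was at 3.14 to 9.54 TPM in PCs and at 0, 0 and 1.35 in MBCs, and Trac was at 1.59 to 18.8 TPM in PCs and at 0, 0 and 0.48 in MBCs. In PC replicate 3, where Ly6c2 was lowest, Trac was highest and Cd3e lowest of the PC libraries. Of the 6 endothelial genes, Tek and Emcn were at 0 everywhere and the sum did not exceed 1.62 TPM in any library. Of the 6 genes of plasmacytoid dendritic cells, Clec10a was at 0 everywhere and the sum was 8.47 to 17.7 TPM in PCs and 15.5 to 55.8 in MBCs. The part that other cells have in the PC values of Ly6c2 was not tested. In bulk samples, fewer cells of a type and less RNA per cell cannot be told apart.

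Ly6c1, the near copy of Ly6c2, encodes the other form of Ly6C, which is typical of endothelial cells and lymphocytes. It was at 0, 0 and 0.55 TPM in MBCs and at 0.21, 0.22, 0 and 0.82 TPM in PCs. Every one of these values is under the level worth 3 reads of the shortest Ly6c1 coding transcript in its library, and the highest, in PC replicate 4, would be 8.53 reads of the longest. No fold is given, and no difference was detectable at this depth. The gene did not pass the low-value filter, and the groups overlapped. In the PC libraries, Ly6c1 made up at most 0.451% of the summed TPM of Ly6c1 and Ly6c2. The summed PC level of both copies was 242 ± 44.0 scaled TPM (SD, n = 4), beside 242 for Ly6c2 alone. This sum does not turn on how reads were divided between the copies. It cannot show whether reads of Ly6c1 were assigned to Ly6c2, which was not tested.

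**Figure D1:**
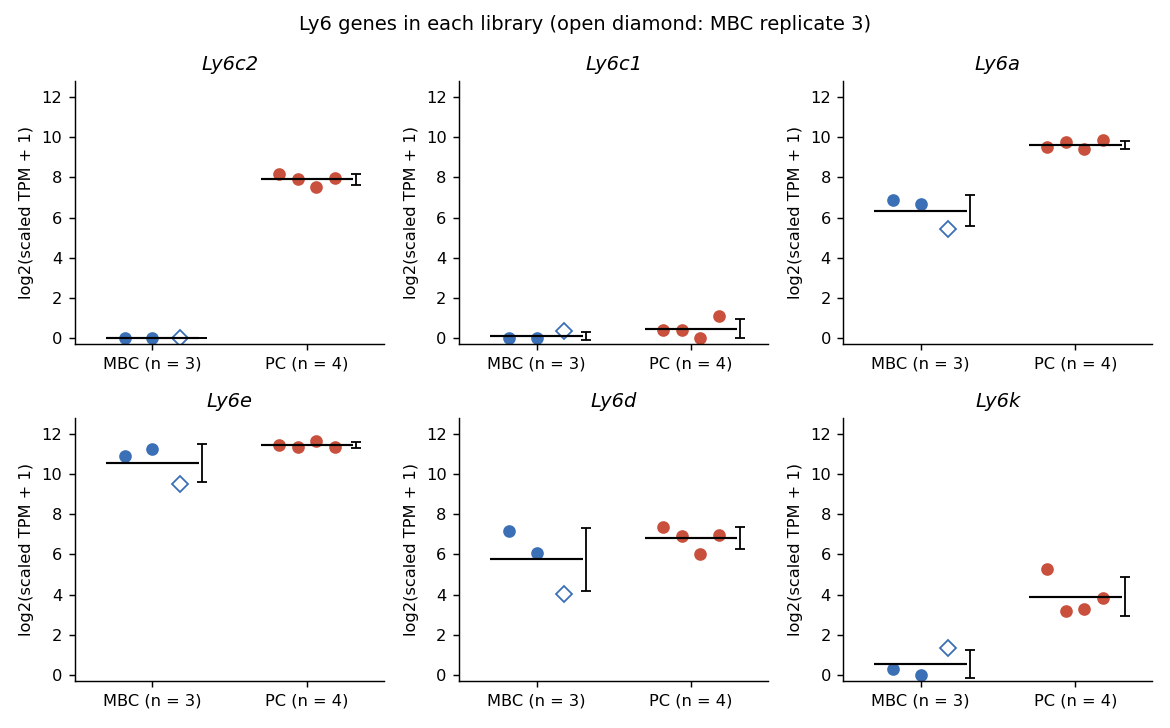
Level of each gene on a log2 scale, as log2(scaled TPM + 1), in the 3 MBC (blue) and 4 PC (red) libraries, with the mean as a line, the SD as a bar beside it and MBC replicate 3 as an open diamond. Ly6c2 is at 0 in all MBC libraries and near 8 in all PC libraries, Ly6a and Ly6k separate the groups, Ly6d overlaps, and Ly6e is highest of the 6 in every library.

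Ly6a encodes Sca-1, best known as a marker of mouse hematopoietic stem cells and induced by interferon on lymphocytes. Its MBC values were 209, 153 and 88.1 TPM, and its PC values 469, 586, 550 and 657 TPM, in the order of the replicate numbers. The groups did not overlap on either scale. The MBC mean was 86.9 ± 38.6 scaled TPM (SD, n = 3). The PC mean was 801 ± 112 (SD, n = 4), which is 9.21-fold the MBC mean, and 3.77-fold in TPM as deposited. MBC replicate 3 had the lowest value of all, and without it the differences were 7.35-fold and 3.12-fold. On the log2 scale the difference was 3.30 (SE 0.39). By rank among all genes of a library, Ly6a was number 458, 719 and 1232 in the MBC libraries and between 139 and 161 in the PC libraries.

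Ly6e encodes a broadly expressed, interferon-inducible member that is known to limit entry of some viruses. It was the most abundant of the 6 in every library. MBC values were 3418, 3635 and 1482 TPM, beside PC values of 1745, 1771, 2579 and 1870 TPM. The groups overlapped on this scale because MBC replicate 3 was the lowest library and the other MBC libraries were the highest. In scaled TPM the MBC values were 1876, 2450 and 722 and the PC values 2745, 2633, 3172 and 2607, so that all PC libraries stood above all MBC libraries. The direction of Ly6e thus followed the scaling. The PC to MBC ratio was 1.66-fold in scaled TPM and 0.700-fold in TPM as deposited, and the log2 difference was 0.90 (SE 0.45) with scaling, -0.43 without it and -1.20 with quantile normalization, where the medians of all genes were 0.14, -0.91 and -0.15. Without MBC replicate 3 the ratios were 1.29-fold and 0.565-fold, and all PC libraries then stood above the MBC libraries in scaled TPM and below them in TPM as deposited. Among all genes Ly6e was number 14, 11 and 53 in the MBC libraries and number 43 to 61 in the PC libraries.

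Ly6d marks lymphoid progenitors committed to the B cell lineage. It was at 258, 97.7 and 31.4 TPM in MBC replicates 1 to 3. The PC libraries had 105, 79.7, 52.2 and 88.9 TPM. The MBC libraries spanned the whole PC range in TPM as deposited. In scaled TPM the groups also overlapped, at 15.3 to 141.5 in MBCs and 64.2 to 164.5 in PCs. MBCs averaged 74.2 ± 63.5 scaled TPM (SD, n = 3), and PCs averaged 118 ± 41.2 (SD, n = 4). The PC to MBC ratio of 1.59-fold became 0.631-fold in TPM as deposited and 1.14-fold in scaled TPM without MBC replicate 3. The log2 difference of 1.07 (SE 0.66) was less than the spread among the MBC libraries. It was -0.23 in TPM as deposited, so no direction is drawn for Ly6d.

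Ly6k is best known from the testis, where its protein takes part in sperm function. In PCs it was the lowest of the members that passed the filter. MBCs held 0.40, 0 and 3.07 TPM, of which replicates 1 and 2 are under the level worth 3 reads, and PCs held 24.0, 5.52, 7.02 and 9.42 TPM. The groups did not overlap, and PC replicate 1 stood far above the other PC libraries. MBCs averaged 0.572 ± 0.808 scaled TPM (SD, n = 3), most of it from an estimated 13.9 to 20.3 reads in MBC replicate 3. The PC average of 16.9 ± 14.1 (SD, n = 4) is 29.6-fold that, and the ratio was 9.93-fold in TPM as deposited. Without PC replicate 1 the PC average was 9.99 ± 2.73 scaled TPM (SD, n = 3) and the ratios were 17.5-fold and 6.33-fold. No fold is given without MBC replicate 3, since the other MBC libraries are under the floor. The log2 difference was 3.36 (SE 0.66), and it was 5.22 with a pseudocount of 0.1.

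Over the 5 members that passed the filter the median log2 difference was 3.30, beside 0.14 over all genes tested. The same median was 1.98 in TPM as deposited and 2.60 with quantile normalization. It is set by Ly6a, so it does not change when Ly6c2 is put at its lower bound. The codes in the sample titles begin with 1 of 2 prefixes that the labels do not explain, and MBC replicate 3 and PC replicate 4 carry the less frequent one. Within the more frequent prefix (2 MBC and 3 PC libraries), the log2 differences were 7.80 for Ly6c2, 2.79 for Ly6a, 3.71 for Ly6k, 0.41 for Ly6e and 0.16 for Ly6d. The other prefix holds 1 library of each group and gives no such value.

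**Figure D2:**
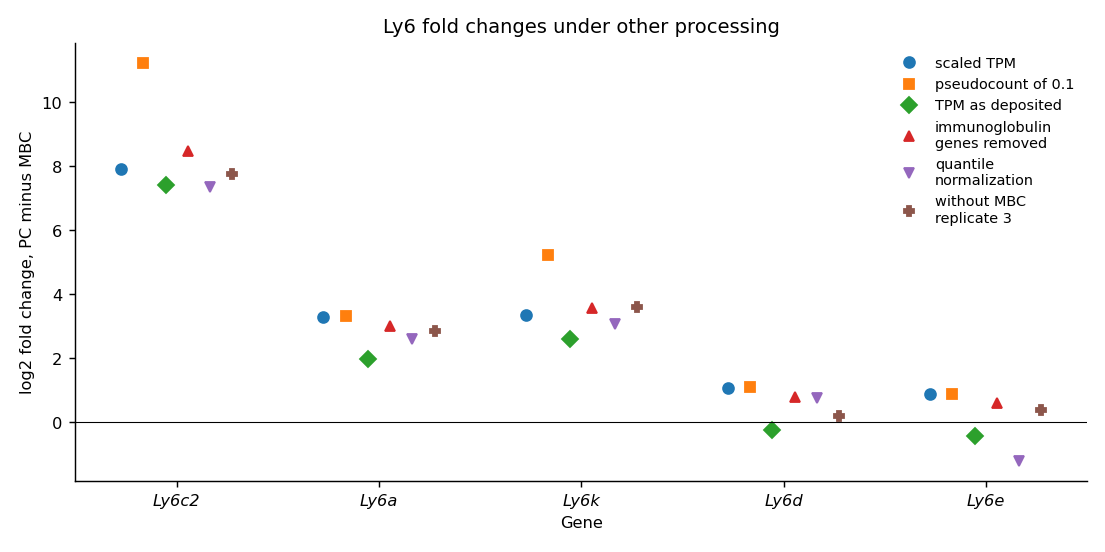
Log2 fold change (PC minus MBC) of the 5 members that passed the low-value filter, by gene, under 6 ways of processing shown by marker shape. Ly6c2, Ly6a and Ly6k lie above 0 throughout, while Ly6d is at -0.23 in TPM as deposited and Ly6e at -0.43 in TPM as deposited and -1.20 with quantile normalization.

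Ratios of members within a library do not depend on the scaling between libraries. The 6 genes together took 0.389%, 0.389% and 0.161% of the TPM of the MBC libraries and 0.253% to 0.334% of the PC libraries, so the summed share overlapped. In its makeup, the shares of Ly6e, Ly6a and Ly6c2 did not overlap. The shares of Ly6d and Ly6c1 did, with Ly6d at 1.955% to 6.64% in MBCs and 1.56% to 4.14% in PCs. Ly6e made up 88.0%, 93.6% and 92.3% of the member sum in MBCs and 69.1%, 68.0%, 77.3% and 66.6% in PCs. Ly6a took 4.94% ± 0.87 of the sum in MBCs (SD, n = 3) against 20.2% ± 3.26 of it in PCs (SD, n = 4), and Ly6c2 added 6.11% ± 1.178 in PCs. For every 100 TPM of Ly6e there were 6.13, 4.20 and 5.95 TPM of Ly6a in the MBC libraries. The PC libraries held 26.9, 33.1, 21.4 and 35.1. In this ratio MBC replicate 3 lay between the other MBC libraries, although its levels of Ly6a and Ly6e were the lowest of the group.

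**Figure D3:**
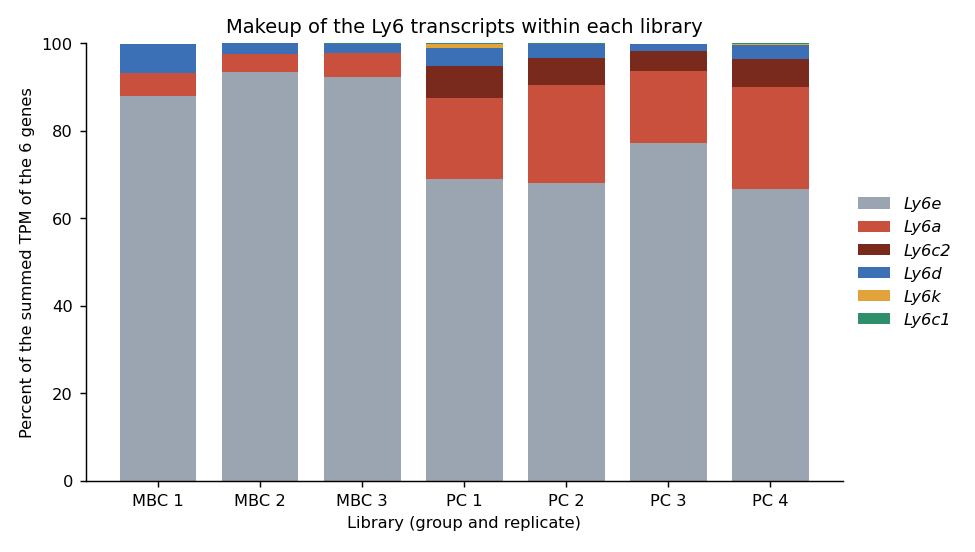
Share of each gene in the summed TPM of the 6 genes, in percent, as stacked bars for each library. Ly6e is at 88.0% or more in the MBC libraries and 77.3% or less in the PC libraries, where Ly6a and Ly6c2 take larger shares.

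Within PCs, Ly6c2 and Ly6a kept a nearly fixed ratio in 3 of 4 libraries. For every 100 TPM of Ly6a there were 39.3, 27.7, 27.2 and 27.6 TPM of Ly6c2 in PC replicates 1 to 4. PC replicate 1 stood apart in this ratio as it did for Ly6k. The ratio of Ly6d to Ly6e did not separate the groups, at 7.54, 2.69 and 2.12 TPM of Ly6d per 100 of Ly6e in MBCs and 5.99, 4.50, 2.02 and 4.75 in PCs.

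**Figure D4:**
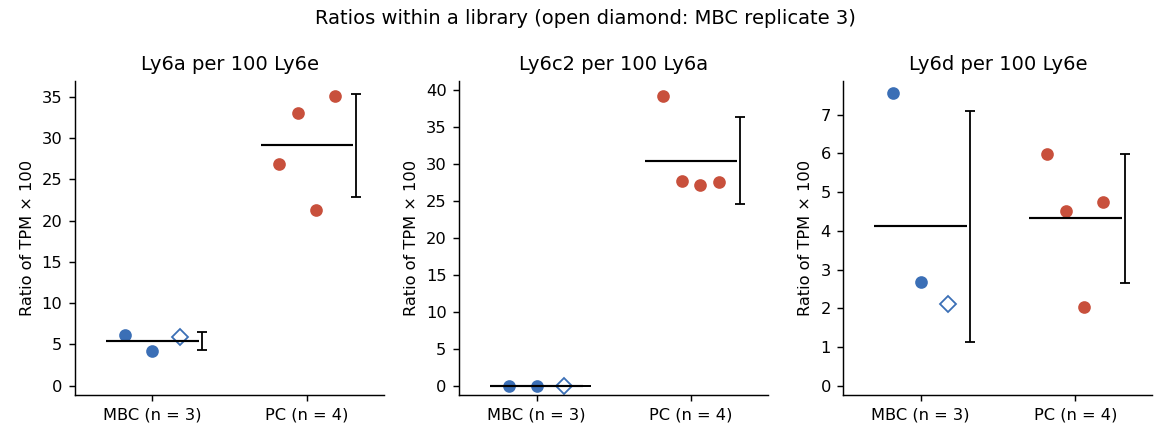
Ratios of member TPM within a library, times 100, in the 3 MBC (blue) and 4 PC (red) libraries, with the mean as a line, the SD as a bar and MBC replicate 3 as an open diamond. Ly6a per 100 Ly6e is 6.13 or less in MBCs and 21.4 or more in PCs, Ly6c2 per 100 Ly6a is 0 in MBCs and highest in PC replicate 1, and Ly6d per 100 Ly6e overlaps.

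The genes whose scaled levels ran most like each member over the 7 libraries were named by Pearson's r among the 11573 tested genes, as a description. The libraries fall into these groups, so any gene that separates them strongly scores high. Ly6c2 ran closest to Sdc1, which encodes the CD138 used to sort PCs, to Prlr, the prolactin receptor gene, and to Bhlha15, a transcription factor of secretory cells (each r = 0.999). Ly6a ran closest to the lambda variable gene Iglv2 (0.999), the chaperone gene Hspa13 (0.994) and the transcriptional coactivator gene Sub1 (0.993). Ly6k ran with Fam210b (0.985), Ly96, which encodes a partner of Toll-like receptor 4 (0.984), and the biotinidase gene Btd (0.983). All 3 of these, like Ly6k, were highest in PC replicate 1, with Ly96 at 124 scaled TPM there and at 34.1 to 63.4 in the other PC libraries. Ly6e ran with the lysosomal lipase gene Lipa (0.985), the interferon-induced GTPase gene Gvin1 (0.977) and the phosphatase gene Ptpn22 (0.976), and Ly6d with Trim30a (0.971), Ube4b (0.965) and Mettl18 (0.964). These genes, like Ly6e and Ly6d, were lowest in MBC replicate 3. Between members, r was highest for Ly6c2 with Ly6a (0.967) and lowest for Ly6d with Ly6k (0.403).

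Most of the rest of the Ly6/uPAR family was at or near 0. Of 41 further family genes listed, 37 were in the table, 11 were above 0 in any library and 3 passed the filter. The granulocyte antigen gene Ly6g, which lies beside Ly6c2, was at 0 in all 7 libraries. Ly6i, the neighbour of Ly6a on the chromosome, was at 1.40 TPM at most. The limma test called none of the 3, where 6.41% of all genes tested were called higher and 2.14% lower. None of the 3 had an unadjusted p under 0.05. Lynx1, whose product tunes nicotinic acetylcholine receptors, was at 65.6, 17.9 and 10.3 TPM in MBCs and at 9.27, 3.07, 5.83 and 2.78 in PCs, a log2 difference of -0.90 (SE 0.69, adjusted p = 0.47). In TPM as deposited, without scaling, Lynx1 was called lower (-2.08, adjusted p = 0.048), where the median of all genes was -0.91. Cd59a, a complement inhibitor gene, was at 11.8, 0 and 3.81 TPM in MBCs and at 0 to 2.69 in PCs. It differed by -0.55 (SE 0.74, adjusted p = 0.70). Plaur, the urokinase receptor gene, was at 5.81, 32.5 and 0.07 TPM in MBCs and at 0 to 4.73 in PCs. It differed by -1.25 (SE 1.07, adjusted p = 0.52).

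The genes between and around the members were mostly off as well. The family genes above and the members themselves are left out of this count. Of 29 other annotated genes within 200 kb of a member, 28 were in the table. Of these, 16 were at 0 in every library and 3 passed the filter. I830127L07Rik, an annotated pseudogene 23.2 kb from the Ly6c2 start, was the 1 called. Of all genes tested, 6.41% were called higher and 2.14% lower. I830127L07Rik was at 3.08, 0 and 0 TPM in MBCs and at 10.7, 6.26, 6.80 and 8.20 TPM in PCs. It rose in PCs by 3.12 on the log2 scale (SE 0.56, adjusted p = 0.0080). Its transcript shares an identical run of 52 bases with Ly6c2 and of 69 bases with Ly6a, and how reads in such runs were assigned was not tested. Them6, beyond Ly6d, differed by -0.58 (SE 0.81, adjusted p = 0.71) and 2010109I03Rik, between Ly6k and Ly6e, by 1.67 (SE 0.72, adjusted p = 0.19). Along the cluster, Ly6e (0.90) lies between Ly6k (3.36) and Ly6a (3.30).

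**Figure D5:**
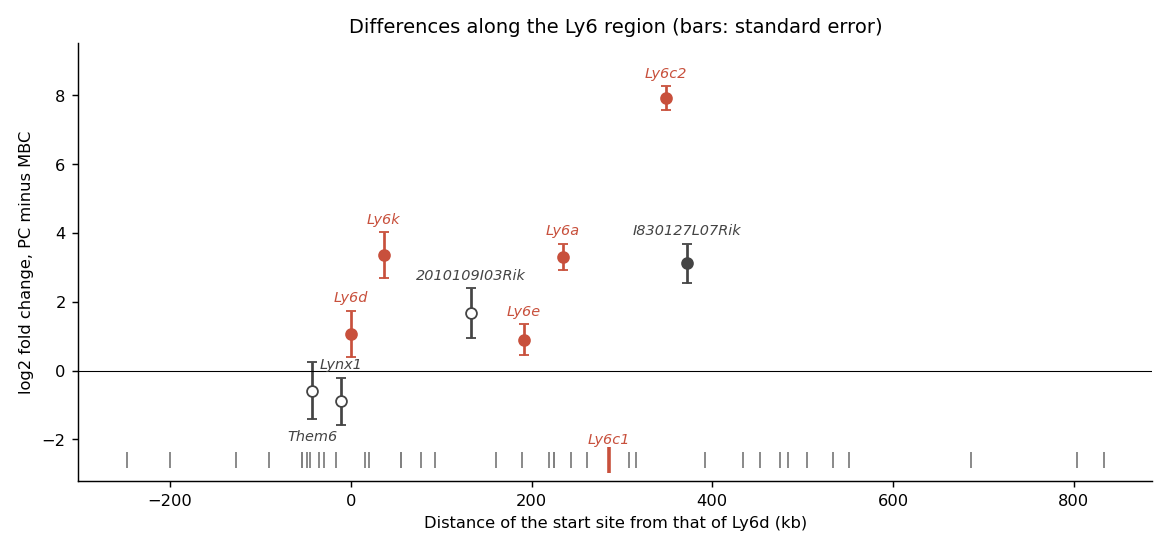
Log2 fold change (PC minus MBC, with its standard error) of genes of the Ly6 region against the distance of their start sites from that of Ly6d, in kb. Members are red, other tested genes dark (filled where called, open where not), and ticks at the bottom mark genes under the low-value filter, Ly6c1 among them in red. Ly6c2 stands highest, at 7.90, and the pseudogene I830127L07Rik beside it at 3.12.

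Transcripts of the enzymes that build and attach the GPI anchor were examined in both populations. All 30 listed genes were above 0 in some library and 27 passed the filter. Of these 1 rose in PCs and none fell, where 6.41% of all genes tested were called higher and 2.14% lower. The median log2 difference was 0.61, beside 0.14 over all genes tested. The gene that rose was Pigk, the protease subunit of the transamidase that joins the protein to the anchor, at 2.29, 9.49 and 12.5 scaled TPM in MBCs and 39.4, 50.2, 36.8 and 45.0 in PCs (log2 difference 2.49, SE 0.51, adjusted p = 0.016). This call was lost without PC replicate 2 or 4 (adjusted p = 0.063 and 0.058), without the low-value filter (0.050) and in TPM as deposited (log2 difference 1.29, adjusted p = 0.11). Pigt, another transamidase subunit, differed by 1.50 (SE 0.56, adjusted p = 0.14) and was called without MBC replicate 2. Dpm3, part of the enzyme that makes the mannose donor of the anchor, differed by 2.63 (SE 0.84, adjusted p = 0.091) and was called without MBC replicate 3.

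Among 10 other GPI-anchored proteins of lymphocytes, 6 passed the filter, 1 rose in PCs and none fell, where 6.41% of all genes tested were called higher and 2.14% lower. The median log2 difference was 0.69, and single genes ran from -1.25 to 1.50. Above 0 were 4 of the 6, as were 55.5% of all genes tested. In scaled TPM, 1 gene had all PC libraries above all MBC libraries and 1 had all below, as did 13.0% and 8.68% of all genes tested. Cd24a, the heat stable antigen gene, was at 102, 177 and 281 scaled TPM in MBCs and at 446, 508, 472 and 537 in PCs, a rise of 1.50 (SE 0.37, adjusted p = 0.035). This call was lost when any library other than MBC replicate 3 was left out (adjusted p 0.070 to 0.099), and without the filter or under any of the 3 other scalings (0.078 to 0.76). In TPM as deposited Cd24a overlapped between the groups, at 185, 263 and 576 in MBCs and 283 to 385 in PCs. Cd52 differed by 0.75 (SE 0.39, adjusted p = 0.28) and Cd48 by 0.63 (SE 0.39, adjusted p = 0.36).

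Of 14 interferon-stimulated genes, given because Ly6a and Ly6e are targets of interferon, 7 passed the filter. Of these 1 rose in PCs and none fell, where 6.41% of all genes tested were called higher and 2.14% lower. The median log2 difference was 0.30, and single genes ran from -1.64 to 3.72. Above 0 were 4 of the 7, as were 55.5% of all genes tested. Isg15, which encodes a ubiquitin-like protein, was at 0, 1.07 and 1.72 scaled TPM in MBCs and at 24.1, 24.8, 14.5 and 29.6 in PCs, a rise of 3.72 (SE 0.53, adjusted p = 0.0022). Bst2, which encodes the surface protein tetherin, differed by 2.42 (SE 0.73, adjusted p = 0.077) and was called without MBC replicate 2 (adjusted p = 0.011).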

How the data were processed

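Bulk RNAseq of 3 MBC and 4 PC samples was analysed, grouped by the sample descriptions. The authors deposited TPM for 48795 Ensembl genes. The submitters' processing notes name STAR 2.5.2a, RSEM 1.3.0, DESeq2 1.18.1 and GRCm38, without their roles. The annotation release is not given in the sources used here. Symbols from GENCODE M21 matched 48349 genes. Scaled TPM is the deposited TPM divided by a library factor, the median over the 9305 genes detected everywhere of the gene's TPM relative to its geometric mean. Genes at 1 TPM or more in at least 3 libraries (11573) were fitted on log2(scaled TPM + 1) in limma 3.58.1 (R 4.3.3, eBayes with trend, no covariate), with Benjamini-Hochberg adjustment over all of them. This scale understates changes of low genes. The procedure was tested on simulated data in which both groups had the spread of the PC libraries. That test does not cover the wider spread of the MBC libraries. Fold changes are PC minus MBC.

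TPM keeps no read totals. Low values of single-transcript genes lay within 0.15 read of a whole number in 75.3% to 84.7% of cases, against 30% by coincidence, and gave 6.32 to 11.6 reads per TPM and kb in MBC libraries and 9.33 to 16.4 in PC libraries. This estimate was chosen after the data were seen. Floors are 3 reads per library of the shortest coding transcript and cover counting error only.

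The members and the lists were chosen with earlier results of these data known. Genes named are all members, family genes past the filter, and, for each other list, those called (at most 4 a direction) and the 2 most abundant not called, with the 3 genes most like each member by r. Ly6g and Ly6i, which lie beside members, were added after their values were seen. A gene that this rule names is not reported here. The cell type markers are those of 7 lists. Sequences were read from GENCODE M21 transcripts and RefSeq promoters, which matched 2 of the 6 members. Alternatives were another pseudocount, no filter, 3 other scalings, leaving out each library, blocks by replicate number and by the code in the sample titles, and the libraries that share the more frequent title prefix.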

Additional observations from a re-analysis of the deposited data

Results flagged for a closer look

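Single libraries were examined for values far from the rest of a group of 4 in 25 measures, and 3 stood out, where chance gives about 1 in 20. Only the PC group has 4 libraries, so MBC libraries were not examined. Ly6k in PC replicate 1 was at 37.7 scaled TPM, where the other PC libraries were at 8.21 to 13.1. In the same library there were 39.3 TPM of Ly6c2 for every 100 TPM of Ly6a, where the others had 27.2 to 27.7. Plaur, the urokinase receptor gene, was at 7.03 scaled TPM in PC replicate 2 and at no more than 0.504 in the other PC libraries.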

How the results depend on the processing

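Ly6c2, Ly6a and Ly6k kept their direction under all 15 alternatives. Ly6d and Ly6e did not: in TPM as deposited their log2 differences were -0.23 and -0.43, and Ly6e was at -1.20 with quantile normalization. The median over the members moved to 2.18 without the low-value filter, where Ly6c1 enters, to 1.98 in TPM as deposited and to 2.60 with quantile normalization, and stayed between 2.85 and 3.38 when single libraries were left out.

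Over all genes, 437 were called higher in PCs and 123 lower without the filter, 472 and 3018 in TPM as deposited, 393 and 431 with immunoglobulin genes removed, and 490 were lower with quantile normalization. Leaving out single libraries gave 456 (without PC replicate 2) to 1624 (without MBC replicate 3) higher and 93 to 881 lower (the same libraries). Among the libraries with the more frequent title prefix, 448 were lower, as were 1 other GPI-anchored and 1 interferon-stimulated gene.

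Of the GPI assembly genes, 0 to 3 were higher and 0 to 1 lower when single libraries were left out, 0 were higher without the filter or in TPM as deposited, where 4 were lower, and 2 were higher with quantile normalization. Of the other GPI-anchored proteins, 0 to 1 were higher and 0 to 1 lower when single libraries were left out, 0 were higher without the filter, in TPM as deposited (1 lower), with immunoglobulin genes removed or with quantile normalization. Of the interferon-stimulated genes, 1 to 2 were higher and 0 to 1 lower when single libraries were left out, and 1 was lower in TPM as deposited, as was 1 other family gene. The causes were not tested.

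Samples with the same replicate number did not deviate together (r of 0.109, -0.040 and -0.083 for the 3 pairs), and those that share a code in their titles did not in every pair (0.109, -0.004 and 0.222). With the replicate block, 390 genes were called higher and 60 lower, with 0 in either list of GPI genes and 0 among the neighbours, where I830127L07Rik had an adjusted p of 0.053. With the title code block, 434 were higher and 83 lower, with 0 in either list of GPI genes. The adjusted p was 0.077 and 0.057 under these blocks for Pigk, and 0.14 and 0.088 for Cd24a. Depth limits Ly6c1 in all libraries and Ly6k in MBCs.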
